A study of Rattus norvegicus with 12 samples.

Results

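The comparison set B12 cells, a rat lymph node stroma line, that had been given exosomes from CD44v knockdown tumour cells against B12 cells left untreated. Its arrays were chosen by their labels alone and number 4 of the 12 arrays in the study: untreated B12 cells, replicates 1 and 2, and B12 cells given kd exosomes for 24 h, replicates 1 and 2. The kd exosomes came from ASML, a rat pancreatic adenocarcinoma line that metastasizes, carrying a knockdown of the variant isoforms of CD44 (CD44v). A further B12 group, given exosomes of unmodified ASML cells (wt exosomes) for 24 h, served as a reference on 2 further arrays, and the labels name B12 cells in all 3 groups. The exosomes themselves lay on the other 6 arrays. The labels give neither the exosome dose nor the method of the knockdown, and do not say whether the replicates were separate cultures, so the p-values measure only the spread between these arrays.

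Exosomes are small membrane vesicles that carry proteins, messenger RNA and microRNA from 1 cell to another, and metastasizing tumours shed them into lymph and blood. Lymph node stroma, which includes fibroblastic reticular cells, makes the collagen network of the node and chemokines such as Cxcl12 that hold and guide lymphocytes. CD44 is the receptor for the matrix sugar hyaluronan, and its variant isoforms are found on many metastasizing carcinoma cells and on the vesicles these release.

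Arrays of the 2 numbers differed more from each other than treated and untreated arrays of 1 number did. Several markers, though not all, went against the stroma label on the arrays numbered 1. Across probes, the log2 signals of the untreated arrays correlated with those of the kd arrays of the same number at 0.973 (number 1) and 0.986 (number 2), but the untreated arrays with each other at 0.908 and the kd arrays at 0.917. Signals are given here over background, in the scanner's arbitrary units. Cxcl12 stood at 182 on untreated array 1 and 305 on kd array 1, but at 29879 and 35258 on the arrays numbered 2. Pdgfra, a receptor that marks fibroblasts, was at 16.2 and −0.5 on the arrays numbered 1 and at 2694 and 2718 on those numbered 2. Krt19, a keratin of simple epithelia, ran the other way, with 14920 and 3052 on the arrays numbered 1 against 910 and 720 on those numbered 2. Not every marker split this way. On untreated arrays 1 and 2 the stroma markers Vim (6893 and 8631) and Ltbr (167 and 166) were close. Des, also on the stroma list, was higher on untreated array 1, at 8943 against 525. The epithelial marker Spint2 stood at 2804 and 3199 on these arrays. Of 21 stroma markers on the array, 19 were detected on at least 1 B12 array and 15 on all 6. Their summed signal was 58087 and 71878 on untreated and kd arrays numbered 1, and 178860 and 207879 on those numbered 2. Of 21 epithelial markers 15 were detected on at least 1 B12 array, and their sum was 78850 and 43678 on the arrays numbered 1 against 10036 and 8445 on those numbered 2. Epcam, Krt18, Cldn3 and Ocln, which also define epithelium, were detected on no array. Of 9 leukocyte markers 3 were detected on at least 1 B12 array and 1 on all 6. That one, Cd68, a lysosomal protein of macrophages, stood at 829 and 131 in untreated and at 218 and 93.6 in kd-treated cells, whereas Ptprc and Cd3e were detected on none. Of 7 endothelial markers 5 were detected on at least 1 array and Tek, Tie1 and Prox1 on all 6, with Cdh5 on none. Tek, the angiopoietin receptor, stood at 506 and 39.7 in untreated and at 274 and 16.3 in kd-treated cells. Prox1 and Tie1, at low signals, were lower in number 1 but higher in number 2. Prox1 stood at 25.3 and 13.0 in untreated and at 14.0 and 23.7 in kd-treated cells, and Tie1 at 43.0 and 27.1 against 28.3 and 37.6. The summed leukocyte markers were 871 and 189 in untreated and 227 and 127 in kd-treated cells, and the endothelial ones 592 and 103 against 327 and 97.5. Both sums were lower after kd exosomes in each number, and their part in the results was not tested. The first principal component held 74.3% of the variance of the 6 B12 arrays and separated the numbers. By the rule of the comparison, changes were taken within a number, kd array 1 minus untreated array 1 and kd array 2 minus untreated array 2. For most results the values of number 2 alone are printed too, with no test of their own. In such bulk RNA, fewer cells of a type and less RNA per cell cannot be told apart.

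The B12 arrays were alike in overall brightness, with a mean signal over background of 505 to 588 and 53.2% to 54.3% of 21946 probes detected. The exosome arrays were dimmer and less alike, with means of 299, 244 and 100 for kd exosomes and 108, 173 and 138 for wt exosomes. The small number of arrays limits the precision. Cd44 itself was detected in every group. Over background, and not scaled for array brightness, it read 57.8, 44.5 and 17.3 in kd exosomes and 61.9, 103 and 59.3 in wt exosomes. It read 727 and 2134 in untreated B12 cells and 509 and 1827 in B12 cells with kd exosomes. Whether the probe lies in a variant exon is not known here, so these values do not check the knockdown. In B12 cells the log2 level was lower after kd exosomes by 0.53 in number 1 and 0.20 in number 2. After wt exosomes it differed from untreated cells by −0.61 and −0.67.

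No probe passed the threshold. Of 11631 probes tested with limma, with the replicate number as a block, 0 (0%) had a Benjamini-Hochberg adjusted p under 0.05 between kd exosomes and untreated cells, and the smallest adjusted p was 0.857. At an unadjusted p under 0.05 there were 670 probes (5.76%), of which 328 were higher and 342 lower after kd exosomes, beside 581.55 that this threshold gives by chance. Without the block, 286 probes (2.46%) did. With 1 array left out, calls ranged from 0 to 70, with 2 calls without untreated array 1 and 70 without untreated array 2. The median standard error of a change was 0.24 in log2. All changes below are differences in log2 signal, kd exosomes minus untreated, and every named gene is given as values that did not pass the adjusted test.

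Among 7908 genes, each represented by its brightest probe, 3851 (48.7%) moved in the same direction in both numbers. The standard deviation of the change over probes was 0.57 in number 1 and 0.41 in number 2. A change of more than 1 in either direction was seen in 581 genes in number 1 and in 227 genes in number 2. By a criterion added after the values were seen, 131 genes (1.66%) were higher by over 0.5 in both numbers and 192 (2.43%) were lower by over 0.5 in both.

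**Figure D1:**
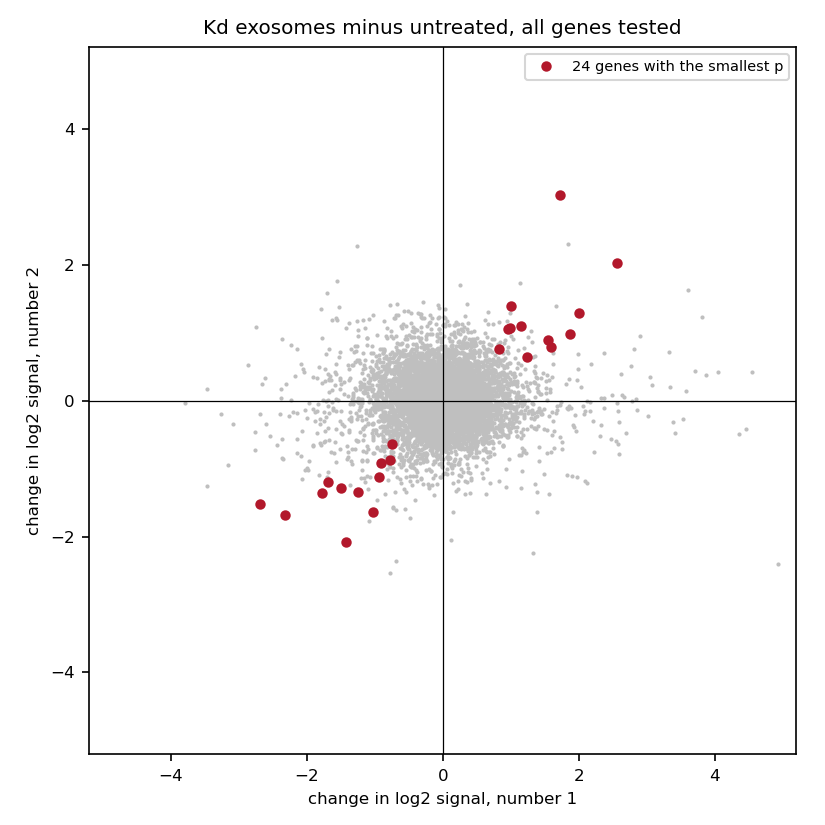
Each grey point is 1 of 7908 genes, with the change in log2 signal (kd exosomes minus untreated) in number 1 on the horizontal axis and in number 2 on the vertical axis; red points are the 24 genes with the smallest unadjusted p and the same direction in both numbers. The cloud is wider along number 1 (standard deviation 0.57 over probes) than along number 2 (0.41), and the red points were picked for lying in the quadrants where both numbers share a direction.

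The genes with the smallest p that were higher after kd exosomes included Mt1, Hp, Rasl11b and Vcam1. They were taken by rank, 12 in each direction among those with the same direction in both numbers, so their shared direction is part of the choice. Mt1, a metallothionein that binds zinc and copper and is induced by metals and stress, had log2 levels of 11.76 and 9.45 in untreated cells, 13.48 and 12.46 after kd exosomes and 13.48 and 13.10 after wt exosomes. Every treated array lay above both untreated arrays. The change was 2.37 ± 0.42 (SE, n = 2), a 5.18-fold higher level, with 1.73 in number 1 and 3.02 in number 2 (limma adjusted p = 0.857). Mt1 transcript was also present in the exosomes, with a signal over background of 3479, 3205 and 3402 on the kd exosome arrays. Untreated B12 cells read 3054 and 746 and kd-treated B12 cells 10829 and 6193, all without scaling for array brightness. The part of transferred transcript in this result was not tested. The Mt1 promoter is shown because TGCGCNC, the form of the metal response element that was searched for, occurs in it 3 times. Other forms of the element were not searched for and are not in capitals. The strand of the gene is printed 5′ to 3′ over the 250 bases before the start, chr19:10832976-10833225, minus strand, from RefSeq on GRCr8, with the elements in capitals.
Mt1: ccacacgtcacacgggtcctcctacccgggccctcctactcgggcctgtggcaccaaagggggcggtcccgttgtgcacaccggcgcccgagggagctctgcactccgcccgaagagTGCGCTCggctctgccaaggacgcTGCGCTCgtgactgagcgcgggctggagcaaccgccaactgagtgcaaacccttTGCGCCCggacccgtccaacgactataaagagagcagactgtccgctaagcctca
The first bases of these elements lie 133, 109 and 55 bases upstream of the start. The same letters occur on either strand in 11.8% of 33469 rat promoter windows of this length, and in 3 of 24 windows (12.5%) of the metallothionein and antioxidant list.

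Hp, which encodes the haemoglobin-binding acute-phase protein haptoglobin, stood at 5.66 and 8.36 in untreated cells and at 8.23 and 10.38 after kd exosomes. The groups overlapped, because the treated array of number 1 lay below the untreated array of number 2, but the change was close in both numbers (2.57 and 2.03). It came to 2.30 ± 0.37 (SE, n = 2, limma adjusted p = 0.857). Rasl11b, a small GTPase of the Ras family, stood at 9.44 and 10.73 in untreated cells and at 11.45 and 12.01 after kd exosomes, without overlap. Its change was 1.65 ± 0.21 (SE, n = 2), or 3.13-fold (limma adjusted p = 0.857). Vcam1, the adhesion receptor by which stroma and endothelium hold leukocytes, stood at 6.23 and 11.14 in untreated cells and at 7.23 and 12.54 after kd exosomes. The numbers were far apart in level, yet their changes were 1.01 and 1.39. After wt exosomes Vcam1 was higher than in untreated cells by 1.17 and 1.49. Icam1, another leukocyte adhesion receptor, went from 9.07 to 9.72 in number 1 and from 12.87 to 13.81 in number 2. After wt exosomes the changes were 0.61 and 1.28 for Icam1, 1.28 and 2.29 for Hp and 1.60 and 1.06 for Rasl11b.

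Among the other higher genes of the 12, Ltbp1, which stores latent TGF-beta in the matrix, stood at 9.95 and 10.92 in untreated and at 11.55 and 11.71 in kd-treated cells, without overlap. Mgp, the matrix Gla protein that inhibits calcification, was higher by 1.87 in number 1 and 0.97 in number 2. Npr2, the receptor of C-type natriuretic peptide, was higher by 0.99 and 1.07. Zdhhc8, a palmitoyltransferase, was higher by 1.15 and 1.09 at levels near the background of the array. The remaining members were Rasl12 (1.55 and 0.90), Tceal9 (0.83 and 0.75), Cxcl1 and Acat2, and the last pair is described with its gene group below.

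**Figure D2:**
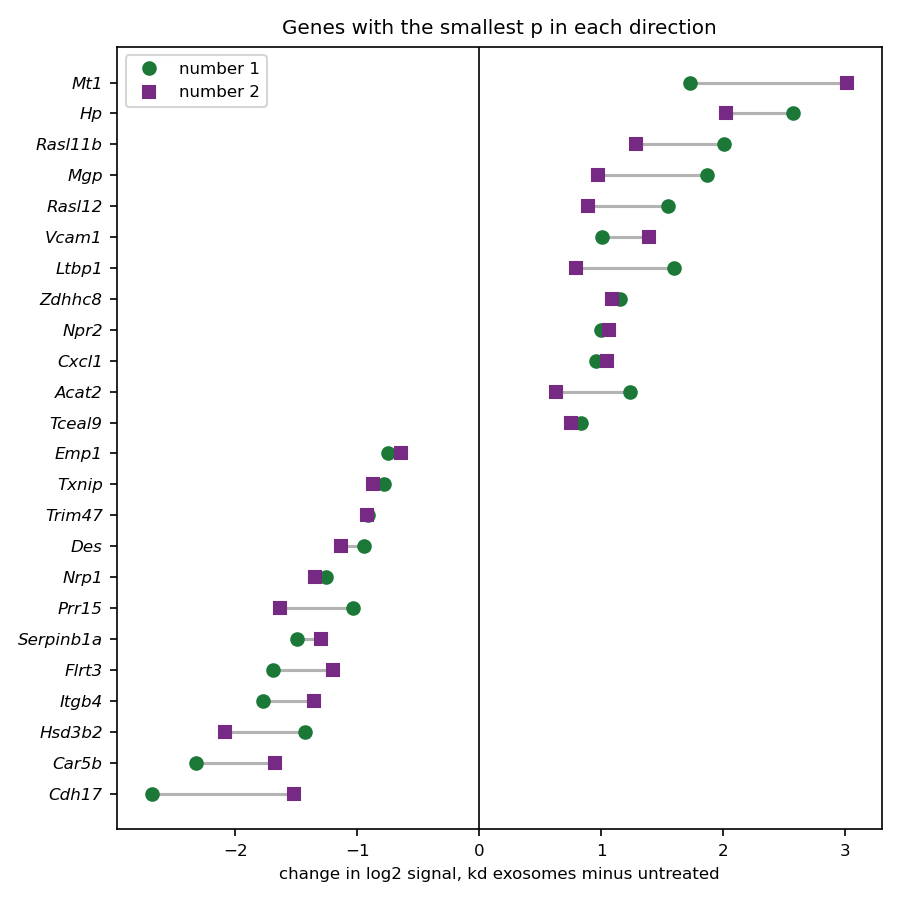
Change in log2 signal (kd exosomes minus untreated, horizontal axis) in number 1 (green circles) and number 2 (purple squares) for the 12 genes in each direction with the smallest unadjusted p, joined by a grey line; 1 array per group stands behind each point. Mt1 shows the highest point at 3.02 in number 2, and Cdh17 the lowest at −2.68 in number 1.

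Cdh17, Car5b, Hsd3b2 and Itgb4 had the largest differences among the 12 genes that were lower after kd exosomes with the smallest p. Cdh17, the liver-intestine cadherin, stood at 11.49 and 7.74 in untreated cells and at 8.81 and 6.22 after kd exosomes. Its change was −2.10 ± 0.33 (SE, n = 2, limma adjusted p = 0.857), with −2.68 in number 1 and −1.52 in number 2. After wt exosomes Cdh17 differed from untreated cells by −1.91 and −0.74. Itgb4, the integrin chain of epithelial hemidesmosomes, went from 11.29 to 9.51 in number 1 and from 8.29 to 6.94 in number 2. Within each number the treated array was the lower, but the untreated array of number 2 lay below the treated array of number 1. Ehf, a transcription factor of epithelial cells, differed by −0.97 and −1.47. Prr15 differed by −1.03 and −1.64, and Flrt3, a cell surface protein with leucine-rich repeats, by −1.69 and −1.20. The summed epithelial markers were lower after kd exosomes too, 43678 against 78850 in number 1 and 8445 against 10036 in number 2, and their part in these values was not tested. Of the 12 epithelial markers tested 9 were lower and 3 higher, with a median change of −0.43. That median was 0.080 without untreated array 1, −1.02 without untreated array 2 and −0.26 without kd array 2. Krt7, a keratin of ductal epithelia, was one of the 3, with log2 levels of 4.65 and 5.04 in untreated and 9.11 and 4.63 in kd-treated cells. Its change was 4.46 in number 1 and −0.42 in number 2, and after wt exosomes 3.37 and 0.61. Krt7 transcript was also present in the exosomes, at 2894, 2040 and 1004 over background on the kd exosome arrays. Untreated array 1 read 8.1 and kd array 1 read 502, and the part of transferred transcript was not tested. The other higher markers were the membrane proteases Prss8 (0.16 and 0.24) and St14 (−0.23 and 0.37).

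Car5b, a mitochondrial carbonic anhydrase, stood at 10.92 and 7.64 in untreated cells and at 8.60 and 5.96 after kd exosomes, a change of −2.00 ± 0.26 (SE, n = 2, limma adjusted p = 0.857). Nrp1, a co-receptor for VEGF and semaphorins, stood at 11.10 and 8.27 in untreated cells and at 9.85 and 6.93 after kd exosomes. After wt exosomes Nrp1 stood at 10.73 and 8.17, closer to the untreated arrays. Serpinb1a, an inhibitor of neutrophil proteases, differed by −1.50 and −1.29. Hsd3b2, a steroid-converting enzyme, differed by −1.43 and −2.09. Des, the muscle intermediate filament desmin, differed by −0.94 and −1.13.

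Txnip, Emp1 and Trim47 were the 3 of the 12 lower genes whose groups did not overlap, and the levels of each differed by less than 1 between the numbers. Txnip, an inhibitor of thioredoxin that follows glucose supply, stood at 14.05 and 13.29 in untreated cells and at 13.27 and 12.42 after kd exosomes. Emp1, a membrane protein of the PMP22 family, stood at 13.88 and 13.58 against 13.13 and 12.94. Trim47, a RING-finger protein, stood at 9.81 and 9.64 against 8.90 and 8.71. After wt exosomes the changes were −0.32 and −0.70 for Txnip, −0.52 and −0.38 for Emp1 and −0.69 and −0.59 for Trim47. Over all 7908 genes, both kd arrays lay below both untreated arrays in 775 genes (9.8%) and above them in 877 genes (11.1%).

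**Figure D3:**
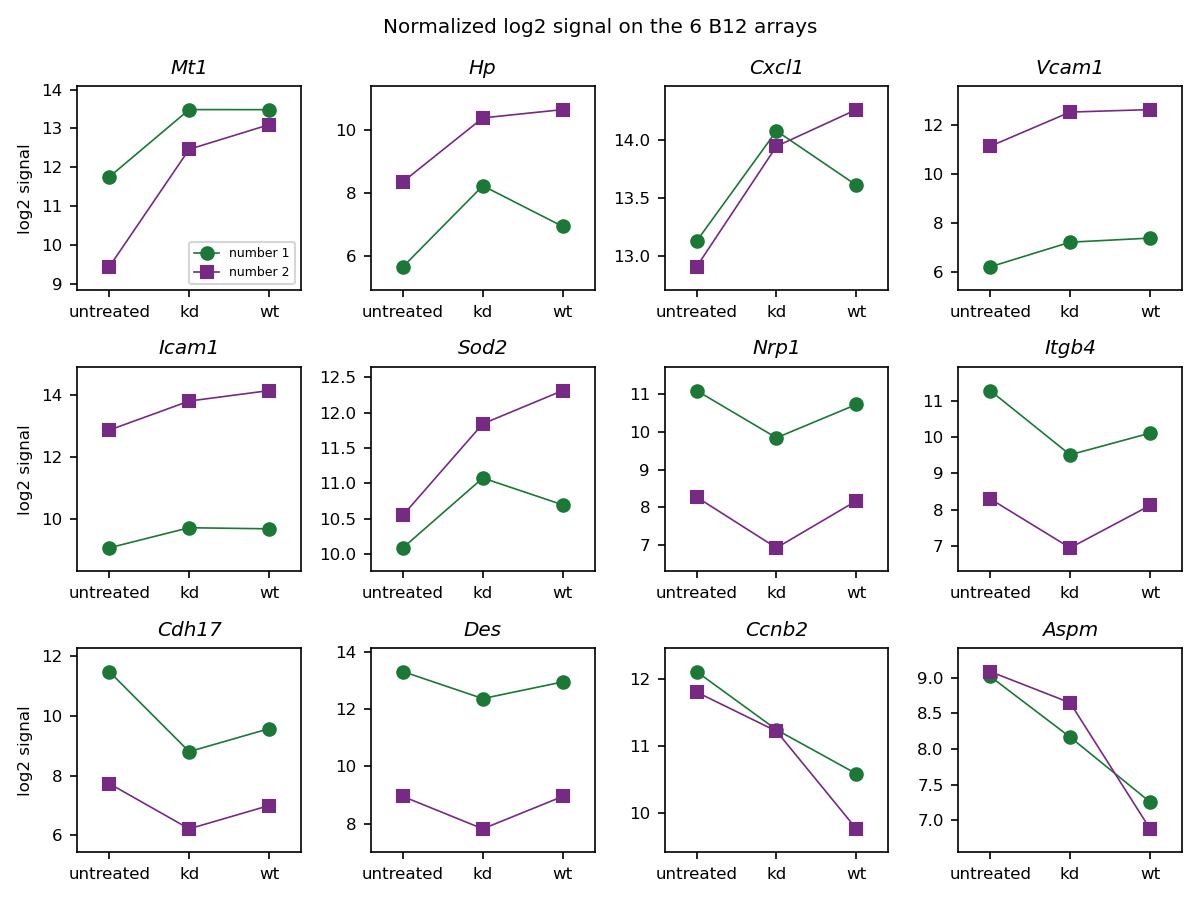
Normalized log2 signal (vertical axis, its range set for each gene) on the 6 B12 arrays for 12 genes named in the text, by group (horizontal axis) and number; each point is 1 array, and lines join arrays of 1 number (green circles, number 1; purple squares, number 2). For Mt1 both kd arrays lie above both untreated arrays, whereas for Vcam1 the distance between numbers is wider than the change within either.

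Chemokines and cytokines, the secreted signals by which stroma calls leukocytes, lay higher in 15 of 24 genes tested and higher in both numbers in 13, beside 1935 of 7908 genes (24.5%) over the whole array. At an unadjusted p under 0.05 in limma 4 were higher and 1 lower, where 2.78% and 3.2% of all genes were. The median change was 0.16, with 0.25 in number 1 and 0.21 in number 2, beside 0.01 over all genes, and it was 0.042 without background correction. It was 0.34 without untreated array 1, 0.010 without kd array 1 and 0.53 without kd array 2. Cells given wt exosomes had a median of 0.27 from untreated cells, with 19 of the 24 genes higher. Directly compared, kd-treated cells lay below wt-treated cells in 15 of the 24, with a median difference of −0.10. Cxcl1, the neutrophil-attracting chemokine of the GRO family, stood at 13.12 and 12.90 in untreated cells and at 14.08 and 13.95 after kd exosomes. The groups did not overlap, and the change was 1.00 ± 0.23 (SE, n = 2, limma adjusted p = 0.857). The wt-treated arrays, at 13.61 and 14.27, also lay above both untreated arrays.

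The promoter of Cxcl1 is shown because the letters of the NF-kappaB site, GGG then 2 bases of any kind then TTTCC, occur in it on each strand. It covers chr14:17479322-17479571, minus strand, in RefSeq on GRCr8, with the sites in capitals.
Cxcl1: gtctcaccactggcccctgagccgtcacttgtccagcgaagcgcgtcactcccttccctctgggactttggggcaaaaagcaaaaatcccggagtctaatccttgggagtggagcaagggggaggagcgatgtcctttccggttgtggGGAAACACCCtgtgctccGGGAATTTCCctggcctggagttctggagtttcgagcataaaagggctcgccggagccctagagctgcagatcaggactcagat
The first bases of the sites lie 102 and 84 bases upstream of the start, the farther one on the opposite strand. The letters occur in 1.3% of 33469 promoter windows and in 5 of 17 windows (29.4%) of the chemokine list.

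The monocyte-attracting chemokines had unequal changes in the numbers. Ccl7 stood at 7.50 and 12.56 in untreated cells and at 10.83 and 13.27 after kd exosomes, a change of 3.33 in number 1 and 0.71 in number 2. Ccl2 stood at 11.21 and 13.47 against 13.19 and 13.77, a change of 1.97 and 0.30. Cxcl2, another neutrophil chemokine, was higher by 3.61 and 1.63, Csf2 (GM-CSF) by 3.81 and 1.22, and Ccl20, which attracts dendritic cells and lymphocytes, by 1.84 and 2.31, with unadjusted limma p-values of 0.104, 0.083 and 0.157. Cxcl10, an interferon-induced chemokine, was lower by 1.84 in number 1 and higher by 0.34 in number 2. Il1rn, the antagonist of the interleukin-1 receptor, stood at 8.75 and 9.12 in untreated cells and lower at 8.34 and 7.67 after kd exosomes. Sod2, the mitochondrial superoxide dismutase and an NF-kappaB target, stood at 10.09 and 10.55 against 11.08 and 11.84, without overlap. After wt exosomes Sod2 was higher than in untreated cells by 0.61 and 1.76.

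Among immediate early genes and NF-kappaB feedback genes the median over 29 genes was −0.05, with −0.11 in number 1 and −0.21 in number 2. At an unadjusted limma p under 0.05, 7 were lower and 2 higher, beside 3.2% and 2.78% of all genes. Jun, a subunit of AP-1, stood at 10.42 and 7.21 in untreated cells and at 9.50 and 6.48 after kd exosomes. Klf4, a transcription factor of epithelial differentiation and quiescence, stood at 12.97 and 11.75 against 11.06 and 11.08, without overlap. Klf6, a related factor, stood at 11.63 and 11.27 against 11.04 and 10.75. After wt exosomes the changes were −0.72 and −0.36 for Jun, −1.57 and −0.11 for Klf4 and −0.59 and −0.55 for Klf6.

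Mitosis genes, which build the spindle and separate chromosomes, lay lower after kd exosomes. All 41 genes tested had a fitted change below 0, and 39 were lower in both numbers, beside 24.2% of all genes. The exceptions were the spindle kinase Aurka and the kinesin Kif20a, higher by 0.67 and 0.14 in number 1 and lower by 0.83 and 0.95 in number 2. The median change was −0.43, with −0.30 in number 1 and −0.57 in number 2, and 9 genes were lower at an unadjusted limma p under 0.05, beside 3.2% of all genes. The median was −0.72 without untreated array 1 and −0.20 without untreated array 2. Kif23, a kinesin of the midbody, stood at 10.32 and 9.57 in untreated cells and at 9.72 and 8.86 after kd exosomes. Aurkb, the kinase that corrects chromosome attachment, stood at 9.77 and 9.68 against 9.24 and 8.86. Ccnb2, a B-type cyclin, stood at 12.11 and 11.81 against 11.25 and 11.22. Aurkb and Ccnb2 did not overlap between groups, whereas Kif23 did.

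The same mitosis genes were compared between the treated groups directly. The log2 differences were taken between treated arrays only. Their standard errors and p-values came from the fit that also held the untreated arrays, so these tests were not independent of those arrays. The kd-treated cells lay above the wt-treated cells in 39 of 41 genes by a median of 0.88, and 29 of the 41 had an unadjusted limma p under 0.05 in that direction, where 143 of 7908 genes (1.81%) did and 1.48% did in the other. No probe passed adjustment in this comparison either: 0 of 11631 (0%), smallest adjusted p 0.999967, with 389 probes (3.34%) at an unadjusted p under 0.05. With wt array 1 left out there were 11 calls. Aspm, a spindle pole protein, stood at 7.26 and 6.88 after wt exosomes, 8.17 and 8.65 after kd exosomes and 9.02 and 9.09 in untreated cells. The 3 groups did not overlap and the kd-treated arrays lay between the others. The difference from wt exosomes was 1.34 ± 0.26 (SE, n = 2), with 0.91 in number 1 and 1.77 in number 2 (limma adjusted p 0.999967 or higher).

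Prc1, which bundles microtubules of the central spindle, had the same order, at 8.98 and 8.60 after wt exosomes, 9.83 and 10.06 after kd exosomes and 10.32 and 10.78 in untreated cells. Bub1b, a kinase-like protein of the spindle checkpoint, stood at 6.88 and 6.60, 8.14 and 7.51, and 8.27 and 7.98 in that order of groups. Its kd-treated arrays overlapped the untreated ones and lay above both wt-treated arrays. Ccnb2 and Arhgap11a, a RhoA regulator, lay above the wt-treated cells by 1.06 ± 0.22 and 0.97 ± 0.20 (SE, n = 2). As the comparisons of kd and wt exosomes with untreated cells share the untreated arrays, their values are set side by side and not correlated. The wt-treated median of the mitosis list was −1.34 from untreated cells.

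**Figure D4:**
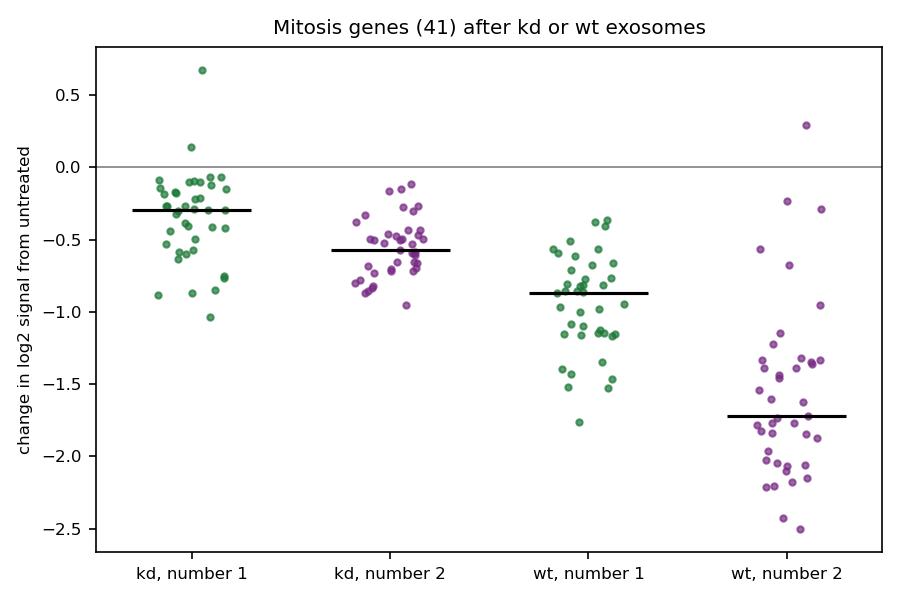
Change in log2 signal from the untreated array of the same number (vertical axis) for 41 mitosis genes after kd or wt exosomes, in number 1 (green) and number 2 (purple); black lines are medians over genes. The kd medians are −0.30 and −0.57, and the wt medians lie lower in both numbers.

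The promoters of Aspm and Prc1 are shown because both carry the letters of the cell cycle homology region (CHR), TTTGAA, close to the start together with CCAAT boxes, CCAAT. They cover chr13:53625334-53625583, plus strand, and chr1:143659231-143659480, plus strand, in RefSeq on GRCr8, with both motifs in capitals; a CCAAT box on the opposite strand reads ATTGG.
Aspm: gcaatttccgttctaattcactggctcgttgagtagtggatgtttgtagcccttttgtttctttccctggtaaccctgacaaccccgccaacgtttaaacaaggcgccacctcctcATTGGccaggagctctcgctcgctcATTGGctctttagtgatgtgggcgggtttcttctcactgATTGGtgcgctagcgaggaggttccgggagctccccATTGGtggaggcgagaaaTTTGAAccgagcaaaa
Prc1: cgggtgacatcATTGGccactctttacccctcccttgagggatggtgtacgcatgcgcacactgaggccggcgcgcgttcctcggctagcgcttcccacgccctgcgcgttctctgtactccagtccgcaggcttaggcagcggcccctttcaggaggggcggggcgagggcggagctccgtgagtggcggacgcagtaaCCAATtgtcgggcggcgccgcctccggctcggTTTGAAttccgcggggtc
The CHR begins 16 bases before the start of Aspm and 18 bases before that of Prc1. Its letters occur on either strand in 22 of 35 windows (62.9%) of mitosis genes and in 16.2% of all 33469 windows. The CCAAT box occurs in 27 of the 35 (77.1%) and in 34% of all.

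Of 41 DNA replication genes tested, 34 were lower and 7 higher, the median was −0.19, and the numbers gave −0.09 and −0.38. Gins3, a subunit of the replicative helicase, stood at 6.20 and 7.03 in untreated cells and at 5.83 and 5.97 after kd exosomes. Against wt exosomes 39 of the 41 lay higher, by a median of 0.53, and 6 had an unadjusted limma p under 0.05, beside 1.81% of all genes. Cell cycle inhibitors and p53 targets had a median of 0.00 over 19 genes.

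Cholesterol synthesis genes lay higher after kd exosomes in 16 of 19 genes tested, beside 50.7% of all genes. Of the 19, 9 were higher in both numbers and 1 lower in both, beside 24.5% and 24.2% of all genes. Their median change was 0.39, with 0.57 in number 1 and 0.22 in number 2. The median was 0.13 without untreated array 1 and 0.60 without untreated array 2. At an unadjusted limma p under 0.05, 3 were higher and 0 lower, beside 2.78% and 3.2% of all genes. Acat2, which makes the acetoacetyl-CoA that feeds the pathway, stood at 11.48 and 12.79 in untreated cells, 12.17 and 12.66 after wt exosomes and 12.71 and 13.43 after kd exosomes. Dhcr7, the enzyme of the last step to cholesterol, stood at 9.39 and 9.26, 9.72 and 9.35, and 10.15 and 9.94 in the same groups. For Dhcr7 both kd-treated arrays lay above the other 4 arrays. Cyp51, the lanosterol demethylase, stood at 5.92 and 7.19 in untreated cells and at 7.37 and 7.53 after kd exosomes.

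The direct difference of the cholesterol list from wt-treated cells was a median of 0.36 above, with 16 of 19 genes higher and 3 at an unadjusted limma p under 0.05, beside 1.81% of all genes. The wt-treated median from untreated cells was 0.02. The SREBP letters, TCAC then 1 base of any kind then CCAC, occurred on either strand in 0 of 15 promoter windows of the list and in 0.974% of all windows. Fatty acid synthesis genes lay higher in 11 of 15, by a median of 0.18, with 0.23 in number 1 and 0.08 in number 2. Scd2, a fatty acid desaturase, stood at 13.09 and 13.48 in untreated cells and at 13.62 and 13.94 after kd exosomes, without overlap.

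Unfolded protein response genes and endoplasmic reticulum chaperones lay higher in 19 of 24 genes, beside 50.7% of all genes. Of the 24, 9 were higher in both numbers and 2 lower in both, beside 24.5% and 24.2% of all genes. Their median change was 0.26, with 0.48 in number 1 and 0.14 in number 2. The median was 0.086 without kd array 1 and 0.44 without kd array 2. At an unadjusted limma p under 0.05, 5 were higher, beside 2.78% of all genes. Hspa5, the chaperone BiP, stood at 13.18 and 13.68 in untreated cells and at 13.96 and 13.98 after kd exosomes. Creld2, a secreted stress protein, stood at 7.70 and 8.53 against 8.80 and 9.01, and Manf, another, at 10.34 and 11.01 against 11.32 and 11.33. None of these 3 overlapped between groups, as was so in this direction for 11.1% of all genes. Cells given wt exosomes had a median of 0.26 as well, and the direct difference between the treated groups was 0.02. Heat shock proteins, the chaperones of the cytosol, had a median of 0.09 over 11 genes, with 0.15 in number 1 and −0.05 in number 2.

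The Hspa5 promoter is shown because it holds the whole endoplasmic reticulum stress response element (ERSE), CCAAT then 9 bases of any kind then CCACG, whose first letters are also a CCAAT box. It covers chr3:38452766-38453015, plus strand, in RefSeq on GRCr8.
Hspa5: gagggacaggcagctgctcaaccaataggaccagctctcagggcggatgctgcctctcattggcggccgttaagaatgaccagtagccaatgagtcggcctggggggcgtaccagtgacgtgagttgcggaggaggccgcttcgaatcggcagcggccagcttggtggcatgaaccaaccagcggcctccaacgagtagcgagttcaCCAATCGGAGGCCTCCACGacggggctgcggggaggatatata
The element, in capitals, begins 43 bases before the start. Its letters occur in 6 of 21 windows (28.6%) of the list and in 0.0657% of all windows.

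Collagens and other fibroblast matrix genes lay higher in 27 of 31 genes, beside 50.7% of all genes. Of the 31, 11 were higher in both numbers and 2 lower in both, beside 24.5% and 24.2% of all genes. The median was 0.47, but the numbers differed: it was 1.06 in number 1 and −0.05 in number 2. It turned to −0.18 without untreated array 1, and was 0.99 without untreated array 2, 0.23 without kd array 1 and 0.77 without kd array 2. Cells given wt exosomes had a median of 0.37 from untreated cells, with 0.83 in number 1 and −0.30 in number 2. Col1a1, a chain of the main fibrillar collagen, was higher by 2.85 in number 1 and by 0.02 in number 2. Postn, a matrix protein of activated fibroblasts, differed by 3.41 and −0.48, and Fbln5, an elastic fibre protein, by 3.34 and 0.19. Col4a1, a basement membrane collagen, was higher in both numbers, at 7.39 and 7.57 in untreated and 8.74 and 8.23 in kd-treated cells. The summed stroma markers, which include Col1a1, Col1a2, Col3a1, Dcn, Lum, Fn1 and Sparc of this list, were 71878 after kd exosomes against 58087 in number 1 and 207879 against 178860 in number 2. They were thus higher in both numbers, whereas the collagen median was above 0 in number 1 only, and the summed epithelial markers were lower in both. The part of either sum in the collagen values was not tested.

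Matrix-degrading proteases, the matrix metalloproteinases, Adam proteases and plasminogen activators, had a median of 0.32 over 18 genes, with 0.29 in number 1 and 0.22 in number 2. Mmp3, stromelysin 1, stood at 6.86 and 9.50 in untreated cells, 10.32 and 13.72 after wt exosomes and 11.41 and 9.92 after kd exosomes. Its kd change was 4.55 in number 1 and 0.42 in number 2, so that the kd value lay above wt by 1.09 in number 1 and differed from it by −3.80 in number 2. Mmp14, a membrane-bound collagenase, stood at 9.72 and 12.33 in untreated and 10.34 and 12.79 in kd-treated cells. Adamts7, a protease of the Adamts family, stood at 7.37 and 6.43 against 8.38 and 7.37. Reck, a membrane inhibitor of these proteases, was higher by 0.41 and 0.69. Protease inhibitors as a list had a median of 0.09 over 18 genes, with 0.39 in number 1 and 0.09 in number 2.

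Integrins and adhesion molecules had a median of −0.13 over 19 genes, with 0.26 in number 1 and −0.23 in number 2. Growth factors and their receptors had a median of 0.11 over 31 genes, with 0.25 in number 1 and −0.14 in number 2. Smooth muscle and cytoskeletal genes had one of 0.43 over 16 that was 0.62 in number 1 and −0.18 in number 2. Igfbp5, which binds insulin-like growth factors, was detected on both kd-treated arrays and on no untreated or wt-treated array. It entered the fit through the kd-treated group alone, so this pattern is part of the choice. Its signal was near background, at 22.8 and 16.2 over it after kd exosomes and 7.4 and 2.0 in untreated cells. By the lowest detected signal it lay at least 1.45-fold above the untreated arrays (limma adjusted p = 0.857). Interferon-induced genes had a median of −0.27, with −0.60 in number 1 and 0.06 in number 2, and antigen presentation genes one of −0.12, with −0.33 and 0.18. Irf7, which drives type I interferon genes, differed by −2.18 and 0.36.

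Lists with a median within 0.05 of 0 were the cell cycle inhibitors and p53 targets given above, metallothionein and antioxidant enzymes (−0.03 over 31 genes), tetraspanins and exosome biogenesis (−0.03 over 32), glycolysis and hypoxia targets (−0.02 over 23), cytosolic ribosomal proteins (−0.00 over 59) and the respiratory chain (−0.03 over 57). Within the antioxidant list, Hmox1, the haem-degrading oxygenase, stood at 9.40 and 9.25 in untreated cells and higher at 9.72 and 10.50 after kd exosomes. Gclc, the limiting enzyme of glutathione synthesis, stood at 12.07 and 11.38 against 11.44 and 10.97.

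**Figure D5:**
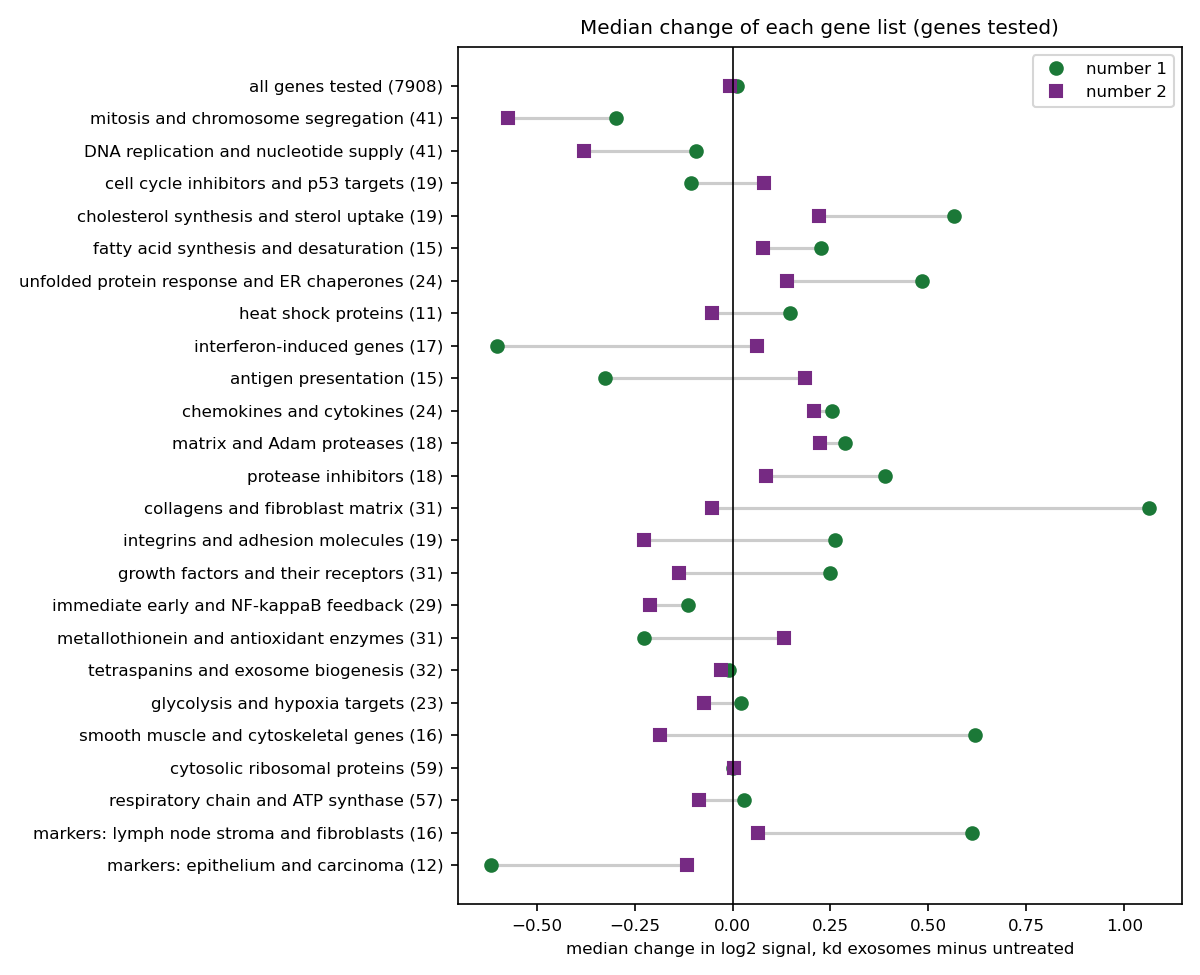
Median change in log2 signal (kd exosomes minus untreated) of each gene list, with number 1 and number 2 shown separately. The mitosis list lies below 0 in both numbers (−0.30 and −0.57), and the collagen list is at 1.06 in number 1 and −0.05 in number 2.

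The genes with the smallest p that were lower in kd-treated than in wt-treated cells were no mitosis genes. Cyp4b1, a cytochrome P450, stood at 11.76 and 8.21 after wt exosomes and 9.98 and 5.70 after kd exosomes, a difference of −2.14 ± 0.39 (SE, n = 2, limma adjusted p 0.999967 or higher). C6, a component of the complement membrane attack complex, stood at 6.79 and 7.14 against 5.61 and 4.88, with untreated cells between them at 5.90 and 6.11. Tec, a tyrosine kinase, was detected on both wt-treated arrays and on none of the untreated or kd-treated ones, at least 1.88-fold above kd-treated cells. Tec entered the fit through the wt-treated group alone, so this pattern is part of the choice. Nrp1 and Car5b were lower in kd-treated than in wt-treated cells by 1.07 and 1.36.

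Transcripts detected in the exosomes but on neither untreated B12 array were looked for in the treated cells. Of 229 probes detected on all 3 kd exosome arrays and on neither untreated B12 array, 34 (14.8%) were detected on both kd-treated B12 arrays. Among 6942 probes detected on no kd exosome array and neither untreated array, 40 (0.576%) were. The signals were dim in both sets, with a median of 17.4 and a maximum of 42.5 over background for the 34 probes. For the 40 probes these were 16.4 and 36.3. The sets were not matched for nearness to the detection limit, and transfer of transcript was not tested. As many of the 229 probes, 34, were detected on both B12 arrays given wt exosomes, and 16 of them were in both sets of 34.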

How the data were processed

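RNA was taken up in Trizol, cleaned with DNase and labelled as biotin cRNA, per the labels' protocols, and hybridised to 12 Illumina arrays. Per the file headers, the non-normalized table deposited by the authors gives every probe's average intensity with a p-value; no source used here names the software. This deposited p-value approached 1 at background and was small above as well as below it. It was treated as two-sided, and a probe counted as detected when p was under 0.05 and the intensity lay above background. Of 23365 rows, 848 had no identifier and 571 shared one. These were left out, leaving 21946 probes, 13129 with 1 gene symbol, 0 with several and 8817 with none. The authors' value table, linear intensities normalized in a way that is not stated, served as an alternative. Its B12 columns had medians of 120 to 121.5 and rank correlations of 0.9996 or higher with the non-normalized ones. The headers of the untreated columns also name 24 h, which the labels do not. The file holds 0 further columns of samples.

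The 6 B12 arrays were corrected and quantile normalized with neqc (offset 16) in limma 3.58.1, R 4.3.3. A probe entered the fit if every array of some B12 group detected it. Fits used lmFit and eBayes with a trend, the replicate number as a block and 2 residual degrees of freedom, two-sided, adjusted by Benjamini-Hochberg at 0.05. The block was used because the rule of the comparison takes changes within the same replicate number. Same-numbered arrays also deviated together from their group means (correlations 0.773 to 0.799), which is from the data and not from the labels. With 2 arrays a group these mirror each other. Genes were named by rule: the 12 with the smallest p in each direction and the same direction in both numbers, where none passed the threshold, up to 4 members a list by p, Cd44, and 5 in each direction for kd against wt exosomes. Other members of the lists and marker lists named beside them were chosen after their values were seen. The members and lists were chosen with earlier results of these data known. Of 124 named genes, 99 had a RefSeq promoter. Probes not detected in a group have only a bound: the brighter mean against the higher of the dim signal and the lowest detected signal. Alternatives covered the block, background correction, normalization, filter, variance trend, the authors' values and each array left out.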

Additional observations from a re-analysis of the deposited data

How the results depend on the processing

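With 2 arrays a group and 2 residual degrees of freedom, a missing call does not show that genes did not differ, and probes near background (log2 signal near 5) carry little weight. Calls between kd exosomes and untreated cells were 0 under every setting tried except with an array left out, where they ranged from 0 to 70: 2 without untreated array 1 and 70 without untreated array 2. Against wt exosomes they ranged from 0 to 11, with 11 without wt array 1. The cause was not tested. Without the replicate block, 286 probes in place of 670 had an unadjusted p under 0.05 (range with an array left out 458 to 1463, the highest without untreated array 2), and 231 in place of 389 against wt exosomes (211 without wt array 2 to 923 without wt array 1, and 652, 621 and 661 without untreated array 1, untreated array 2 and kd array 1). That second count was 751 without the filter on dim probes and 245 for probes detected on all 6 arrays, which changes the probes tested.

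Genes higher by over 0.5 in both numbers came to 27 without background correction, 45 with an offset of 50, 76 with 12 arrays normalized together, 21 on the authors' values and 73 when detected on all 6 arrays. Those lower came to 39 without background correction, 73 with an offset of 50, 27 on the authors' values and 111 when detected on all 6. The chemokine median was 0.042, 0.072, 0.065 and 0.076 without background correction, with an offset of 50, on the authors' values and on all 6. With an array left out, list medians ranged from 0.010 to 0.53 for chemokines, 0.13 to 0.60 for cholesterol synthesis, 0.086 to 0.44 for the unfolded protein response, −0.72 to −0.20 for mitosis, −0.18 to 0.99 for collagens, 0.060 to 0.58 for stroma markers and −1.02 to 0.080 for epithelial markers. The collagen and epithelial medians turned sign without untreated array 1.

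Some named genes turned sign with an array of number 1 left out (untreated or kd). Over all alternatives, not only those fits, their changes ranged from −2.28 to 0.093 for Cd68, −0.027 to 0.42 for Dnajb4, −0.0015 to 1.94 for Gadd45b, −0.51 to 1.98 for Gadd45g, −0.020 to 2.55 for Igfbp7, −2.07 to 0.24 for Irf7, −0.84 to 0.16 for Lck, −0.037 to 0.79 for Me1, −0.44 to 0.40 for Prox1, −0.67 to 0.11 for Tap1, −0.43 to 0.32 for Tie1 and −0.88 to 0.041 for Tp53inp1. Of the named genes 13 passed the threshold in some fit, 12 of them without untreated array 2 and Mt1 without untreated array 1.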
